A study of Mus musculus with 6 samples.

Results

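The 10 genes described here encode the transcription factors that build and maintain the fat cell programme: Pparg, Cebpa, Cebpd, Nr1h3, Klf15, Ebf1, Ebf2, Zfp423, Ppara and Rxra. They were chosen by gene symbol, all 10 were found among the 17666 genes of the table, and all 10 passed the filter on low counts. For Pparg its 11 transcripts were also read, of 56077 in the transcript table.

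Fat cell formation runs through a cascade of transcription factors. Early factors such as C/EBP-delta (Cebpd) and C/EBP-beta act before the nuclear receptor PPAR-gamma (Pparg) and C/EBP-alpha (Cebpa), which then sustain each other and switch on the genes for lipid storage. PPAR-gamma binds DNA together with its partner receptor RXR-alpha (Rxra), and Zfp423, Ebf1 and Ebf2 act in committed progenitors upstream of it.

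The cells were mouse chondroprogenitors that had been sorted by GFP out of digested knee joints at birth (P0). Every animal carried Prx1-Cre and the Rosa26 mT/mG reporter, which turns green where Cre has acted. The WT group held only these, and in the KO group Prx1-Cre, active in early limb mesenchyme, also deleted Ppp1r15b, which encodes the constitutive phosphatase subunit CReP that acts on the translation factor eIF2alpha. Per the labels' growth protocol the cells were then cultured until they were mature chondrocytes, whereas the series design text has RNA taken after sorting. Nothing in the labels ties the 3 libraries of each group to separate litters, animals or dishes. A p-value therefore sets the difference between groups against the spread of these samples only, and that spread may be technical.

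Libraries held 18380880 to 19643951 estimated counts. Levels within a gene are given in CPM, counts scaled to a common library size. Ppp1r15b RNA went from 76.1 ± 20.7 CPM (SD, n = 3) in WT to 23.4 ± 4.13 CPM (SD, n = 3) in KO (log2 fold change -1.70, SE 0.242, adjusted p = 0.0297), and the labels do not name the deleted stretch. The chondrocyte markers were abundant in every library, with a summed level of 31340 to 41810 CPM over 7 genes in WT and 32330 to 33660 CPM in KO. That sum was mostly Col2a1, at 26820 to 35330 CPM in WT and 25050 to 27050 CPM in KO. By gene, 6 of the 7 had a higher estimate in KO and 1 a lower one (median log2 fold change 0.113). The edgeR test called 0 of them, and DESeq2 called 1 higher, where it called 8.55% of all genes. Markers of other cells differed between libraries, and 2 libraries stood apart within their groups. The 8 macrophage markers, among them Ptprc and Cd68, summed to 322, 173 and 320 CPM in WT replicates 1 to 3, and the KO libraries held 14.7, 15.6 and 136 CPM. The 7 skeletal muscle markers, of which Acta1 and Myh3 were the most abundant, summed to 529, 70.2 and 479 CPM in WT and to 15.5, 13.6 and 198 CPM in KO. WT replicate 2 was thus the lowest WT library in both lists, and KO replicate 3 the highest KO library. Across genes, log2 CPM of KO replicate 3 correlated at 0.9346 and 0.9337 with the other KO libraries, which correlated at 0.9935 with each other. In bulk RNA, fewer cells of a type and less RNA per cell cannot be told apart.

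In KO, 2 of the 10 transcription factors fell, Pparg and the oxysterol receptor gene Nr1h3, 0 rose and 8 were not called (edgeR quasi-likelihood test, adjusted p under 0.05). Of all 13692 genes tested, 1.63% fell and 0.884% rose, 2.51% in either direction. At an unadjusted p under 0.05 there were 4 of the 10, with Cebpa and Klf15 added, against 2627 genes in all, and the DESeq2 Wald test called 3 lower and 1 higher, where it called 8.55% of all genes. The median log2 fold change was -0.02 over the 10 and 0.005 over all genes tested. Pparg, Nr1h3 and Cebpa stood at 31.1% to 54.2% of their WT means in each KO library. The WT and KO values did not overlap for 5 of the 10 (Pparg, Cebpa, Cebpd and Nr1h3 lower in KO, Klf15 higher), as was the case for 28.4% of all genes tested.

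**Figure D1:**
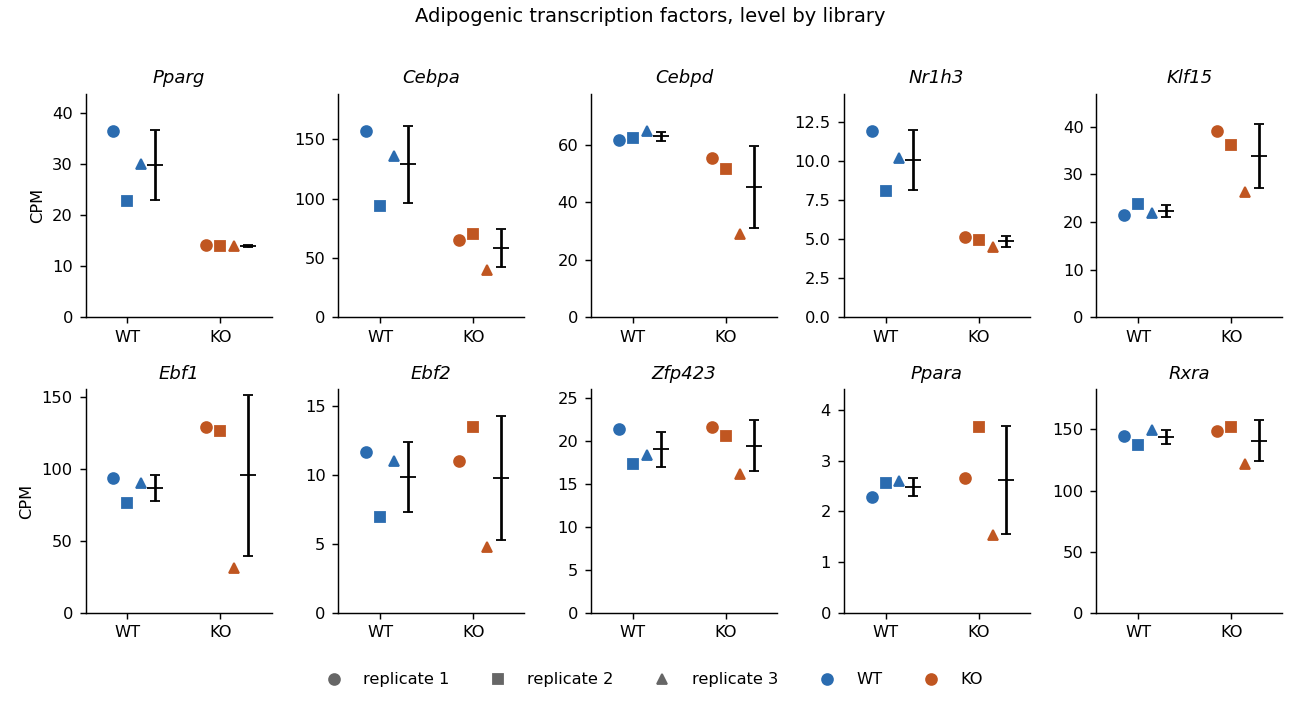
Level of each transcription factor in CPM (y axis, from 0) in the WT and KO libraries; each point is 1 library, with its replicate number as the marker shape, and the black bar is the group mean ± SD (n = 3). Pparg and Nr1h3 are low in all 3 KO libraries, whereas Ebf1 ranges from 31.2 to 129.7 CPM within KO.

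Pparg (Entrez gene 19016, chromosome 6 from 115360879 to 115490404 in GRCm38.p6), the master regulator of fat cell formation, lay at 36.5, 22.8 and 30.0 CPM in WT and at 14.2, 13.9 and 13.9 CPM in KO. The KO libraries were thus close to each other and all below the lowest WT library, WT replicate 2. The log2 fold change was -1.09 (SE 0.175, adjusted p = 0.0404), so that the KO mean was 47.0% of the WT mean. The gene has several start regions. Transcripts that begin in the upstream regions encode PPAR-gamma isoform 1, and those that begin at the internal one encode isoform 2, which carries extra residues at its N-terminus and is largely confined to fat cells. Only 4 of the 11 Pparg transcripts could be matched to the GENCODE annotation: 2 at the first region and 1 at the second encode isoform 1 with 475 codons, and 1 at the internal region, starting at 115422066, encodes isoform 2 with 505 codons. Those 4 held 83.8% to 95.0% of Pparg estimated counts in each library.

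The coding part of the first exon of the isoform 2 transcript, which 0 bases of the other matched transcripts overlap, is shown because it is what sets this transcript apart. It lies on the plus strand at chr6:115422111-115422192 in GENCODE's GRCm38 annotation, is 82 bases long with the start codon in capitals, and together with bases of the next exon adds 30 codons.
Pparg isoform 2, first coding exon: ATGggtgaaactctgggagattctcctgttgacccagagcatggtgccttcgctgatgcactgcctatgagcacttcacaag

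The isoform 2 transcript held lower counts in every KO library. It had 351.13, 147.22 and 349.01 estimated counts in the WT libraries, and 49.71, 24.58 and 9.61 in the KO libraries. Every KO library was below every WT library, and WT replicate 2 was again the WT library nearest to KO. The other 10 transcripts together held 365.86, 271.8 and 213.99 estimated counts in WT and 211.29, 228.41 and 271.38 in KO, and here the groups overlapped. Among them the transcript of the second start region did not overlap. It held 193.99, 167.82 and 143.55 estimated counts in WT and 110.61, 95.59 and 101.79 in KO, so lower counts were not confined to isoform 2. The isoform 2 transcript therefore took 49.0%, 35.1% and 62.0% of Pparg counts in the WT libraries and 19.0%, 9.72% and 3.42% in the KO libraries, 48.7 ± 13.4% against 10.7 ± 7.86% (SD, n = 3 each). The two-sided exact permutation p for this share was 0.1, the smallest that 3 against 3 libraries can give, so the threshold could not be reached. In CPM the isoform 2 transcript went from 14.8 ± 5.91 to 1.51 ± 1.12 and the other transcripts from 14.9 ± 3.60 to 12.5 ± 0.971 (two-sided exact permutation p = 0.1 and 0.4). Of the difference of 15.8 CPM between the group means of Pparg, 84.4% lay on the isoform 2 transcript. The 7 unmatched transcripts are counted among the others, though which isoform they encode was not determined. They summed to 1.85, 1.14 and 1.58 CPM in WT and to 1.89, 2.25 and 0.920 CPM in KO. In KO replicates 2 and 3 that was above the isoform 2 transcript (1.35 and 0.475 CPM), so its share there may be understated.

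In the test across all 33288 transcripts that passed the filter, edgeR called 0 (0%), against 2526 at an unadjusted p under 0.05, and DESeq2 called 5.23%. The log2 fold change of the isoform 2 transcript was -3.29 (SE 0.712), with an adjusted p of 0.244 in edgeR and of 4.72e-05 in DESeq2. The transcript of the second start region was at -0.72 (SE 0.231, edgeR adjusted p = 0.494, DESeq2 adjusted p = 0.0087), and the more abundant of the 2 at the first region was at 0.10 (SE 0.506, edgeR adjusted p = 0.997). Counts per transcript are the estimates of a program that divides shared reads, and their assignment error is not in these tests.

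**Figure D2:**
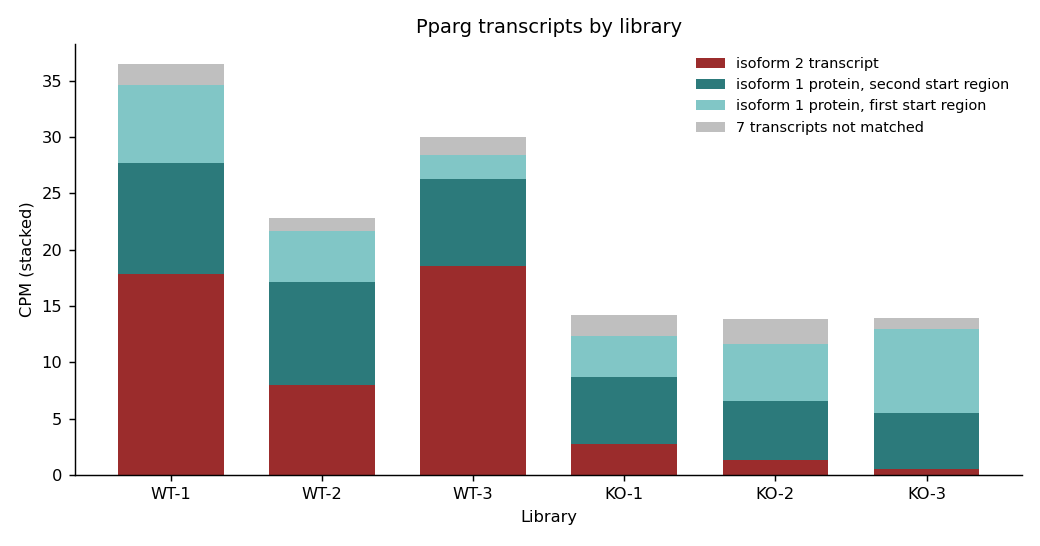
Stacked CPM of the Pparg transcripts (y axis) in each of the 6 libraries (x axis), grouped by the start region that the annotation gives; 7 transcripts were not matched to it. The isoform 2 segment goes from 17.9, 8.01 and 18.6 CPM in WT to 2.701, 1.35 and 0.475 CPM in KO, while the rest of each bar lies between 11.4 and 18.6 CPM.

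Windows of 300 bases, mostly upstream, at the 3 Pparg start sites in RefSeq (GRCm38.p6, plus strand) are shown because the size of the difference varied by start region. RefSeq and GENCODE place the isoform 2 start at the same base, and the other starts 193 and 57 bases apart. Capitals mark matches on either strand to a C/EBP motif (TTNCNNAA) or to a TATA box (TATAAA), which do not overlap here.
Pparg first start region, chr6:115360894-115361193: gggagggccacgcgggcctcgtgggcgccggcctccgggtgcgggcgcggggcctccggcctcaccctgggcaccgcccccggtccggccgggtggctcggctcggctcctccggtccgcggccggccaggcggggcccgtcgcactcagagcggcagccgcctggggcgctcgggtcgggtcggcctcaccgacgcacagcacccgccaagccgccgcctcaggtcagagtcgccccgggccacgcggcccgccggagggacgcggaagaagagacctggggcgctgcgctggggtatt
Pparg second start region, chr6:115362099-115362398: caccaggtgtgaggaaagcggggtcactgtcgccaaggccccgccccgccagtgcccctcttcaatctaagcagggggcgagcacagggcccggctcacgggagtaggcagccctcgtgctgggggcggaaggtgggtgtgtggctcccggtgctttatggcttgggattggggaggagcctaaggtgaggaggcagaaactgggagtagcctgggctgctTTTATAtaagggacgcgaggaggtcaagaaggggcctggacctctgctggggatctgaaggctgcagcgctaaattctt
Pparg isoform 2 start region, chr6:115421816-115422115: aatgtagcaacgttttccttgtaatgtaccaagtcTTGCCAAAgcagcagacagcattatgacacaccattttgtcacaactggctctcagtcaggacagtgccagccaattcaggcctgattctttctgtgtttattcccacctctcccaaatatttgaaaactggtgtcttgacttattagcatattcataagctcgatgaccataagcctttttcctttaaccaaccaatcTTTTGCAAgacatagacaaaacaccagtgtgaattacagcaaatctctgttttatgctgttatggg

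The 3 windows differ in base composition, with 80.3%, 62.7% and 40.3% G and C. The isoform 2 window holds 2 matches to the C/EBP motif, beginning 215 and 16 bases before the start site, and the other 2 windows hold 0. The second window holds 1 match to the TATA box, on the minus strand, 29 bases before its start site. Of 32544 RefSeq promoter windows of the same length 40.7% hold a match to this C/EBP motif and 13.6% to the TATA box, so a match is common. Promoter windows were read for 8 of the 10 genes (not Cebpd and Ebf2), 14 windows in all, and Zfp423 and Ebf1 were the other genes with a C/EBP match. For an EBF motif (CCCNNGGGA, in 6.6% of all windows) and a PPAR and RXR motif (DR1, a pair of AGGNCA with a single N between, in 0.384% of all windows) 0 of the 14 windows held a match. A match is a description of letters and shows neither binding nor use of a site.

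Rxra, the partner that PPAR-gamma needs to bind DNA, did not separate the groups, with 144.9, 137.6 and 149.2 CPM in WT and 148.9, 152.3 and 121.4 CPM in KO (log2 fold change -0.03, SE 0.103, adjusted p = 0.910). Per length the RNA of Rxra lay at 65.3 ± 4.21 TPM, the unit scaled for transcript length, in WT and 65.4 ± 7.55 TPM in KO, beside 37.0 ± 9.38 and 17.1 ± 0.101 TPM for Pparg (SD, n = 3 each). By mean TPM the order in WT was Cebpa, Rxra, Cebpd, Ebf1, Pparg, Klf15, Nr1h3, Zfp423, Ebf2 and Ppara. In KO it was Rxra, Cebpa, Ebf1, Cebpd, Klf15, Pparg, Zfp423, Nr1h3, Ebf2 and Ppara. By the larger SD of each pair, the WT neighbours Rxra and Cebpd lay within 1 SD of each other, as did Ebf1 and Pparg. In KO each neighbouring pair in the run Cebpa, Ebf1, Cebpd and Klf15 did so.

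Cebpa, which encodes the factor that sustains Pparg and the mature fat cell state, had the highest level of the 10 in WT, 109.5 ± 29.9 TPM against 50.3 ± 13.6 TPM in KO (SD, n = 3 each). In CPM it lay at 156.9, 93.7 and 135.8 in WT and at 65.1, 69.9 and 40 in KO. The groups did not overlap, KO replicate 3 was lowest and WT replicate 2 lay nearest to KO. The log2 fold change of -1.14 had a wider error than that of Pparg (SE 0.271) and was not called (adjusted p = 0.0924; unadjusted p = 0.0052 in the same edgeR test). The table gives Cebpa 5 transcripts with identical counts in every library, so they cannot be told apart.

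Cebpd, the early C/EBP of the cascade, lay at 61.7, 62.4 and 64.8 CPM in WT and at 55.6, 51.5 and 29.0 CPM in KO. Its 3 WT libraries were close together, and KO replicate 3 lay well below KO replicates 1 and 2. The log2 fold change was -0.47 (SE 0.236, adjusted p = 0.338). Without KO replicate 3 it was -0.23 and called (adjusted p = 0.0285), in a fit that called 28.5% of all genes.

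Nr1h3 (Entrez gene 22259, chromosome 2 from 91184061 to 91202829) encodes LXR-alpha, a nuclear receptor that senses oxysterols and that macrophages as well as fat cells express. It lay at 11.95, 8.11 and 10.2 CPM in WT and at 5.16, 4.94 and 4.50 CPM in KO, so the KO libraries were close together and below all WT libraries. The log2 fold change was -1.05 (SE 0.185, adjusted p = 0.0486). That p is close to the threshold, and the call was lost with library size alone as the scaling (0.054), without the filter (0.0569), with robust estimation (0.0503) and with limma-voom (0.0593). Ppara, the receptor of the fatty acid oxidation programme, had the lowest level of the 10 at 0.757 ± 0.0503 TPM in WT and 0.803 ± 0.341 TPM in KO (SD, n = 3 each; log2 fold change 0.08, SE 0.342, adjusted p = 0.937).

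Klf15, a Krüppel-like factor induced late in fat cell formation, was the one of the 10 with higher values in every KO library, 39.1, 36.2 and 26.3 CPM against 21.4, 23.7 and 21.95 CPM in WT. KO replicate 3 lay nearest to WT. Its log2 fold change was 0.60 (SE 0.158, adjusted p = 0.117) over all libraries, and 0.76 without KO replicate 3 (adjusted p = 0.000401).

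The factors of committed progenitors did not separate the groups over all 6 libraries. Ebf1, an early B cell factor that acts upstream of Pparg, lay at 93.6, 76.7 and 90.7 CPM in WT and at 129.7, 126.4 and 31.2 CPM in KO, so that KO replicates 1 and 2 were above all WT libraries and KO replicate 3 below them. Its log2 fold change was 0.14 (SE 0.498, adjusted p = 0.918), and 0.56 and called without KO replicate 3 (adjusted p = 0.0039). Ebf2, its paralogue and a marker of brown fat progenitors, lay at 11.6, 6.96 and 10.97 CPM in WT and at 11.03, 13.5 and 4.80 CPM in KO (log2 fold change -0.01, SE 0.403, adjusted p = 0.993). Zfp423, which commits progenitors to the fat lineage, ranged from 17.4 to 21.4 CPM in WT and from 16.1 to 21.7 CPM in KO (log2 fold change 0.03, SE 0.148, adjusted p = 0.937). Each of the 10 genes except Pparg had its lowest KO value in KO replicate 3. Markers of progenitors and osteoblasts were mixed in that library. The summed progenitor markers stood at 99.4% of their WT mean in KO replicate 3 and at 127% in KO replicates 1 and 2. In KO replicate 3 Dlk1 alone made up most of that sum of 2181 CPM. The sum therefore does not show that the other progenitor markers were kept there. Pdgfra lay at 320.4, 363.7 and 88.9 CPM in KO replicates 1 to 3, and Dlk1 at 467.9, 436.7 and 1226 CPM. The osteoblast sum stood at 81.6%, 83.8% and 22.7% of its WT mean in these libraries and was nearly all Col1a1, which lay at 9875, 10140 and 2675 CPM, whereas Bglap, the osteocalcin gene, was highest in KO replicate 3 (1.14, 1.15 and 17.6 CPM). The part of these cells in the values of Ebf1 was not tested. Transcripts of the 2 defining B cell markers that the table held, Cd79a and Pax5, were at 0 to 2 counts in each library.

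The number of members called depended on the libraries in the fit. Without KO replicate 3 edgeR called 4 lower (Pparg, Cebpa, Cebpd and Nr1h3) and 2 higher (Klf15 and Ebf1), where 28.5% of all genes were called. With WT replicate 2 also left out the same 6 were called, where 39.2% of all genes were. Without WT replicate 2 alone Pparg was called (adjusted p = 0.0256) and Nr1h3 was not (0.0561), where 1.27% of all genes were called. Leaving out any of the other 4 libraries left 0 genes called, with 1555 to 2345 at an unadjusted p under 0.05. The log2 fold change of Pparg stayed between -1.25 and -0.92 in all 15 alternatives and that of Nr1h3 between -1.19 and -0.91. Groups that do not overlap fix these directions. With all 6 libraries, the same 2 members were called with DESeq2 size factors in edgeR (2.5% of all genes called) and with a 1 CPM filter (1.94%). There was 1 with library size only (2.28%), robust estimation (2.26%) or no filter (1.63%), and 0 with limma-voom (1.99%) and with the replicate number as a block (0.0365%).

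**Figure D3:**
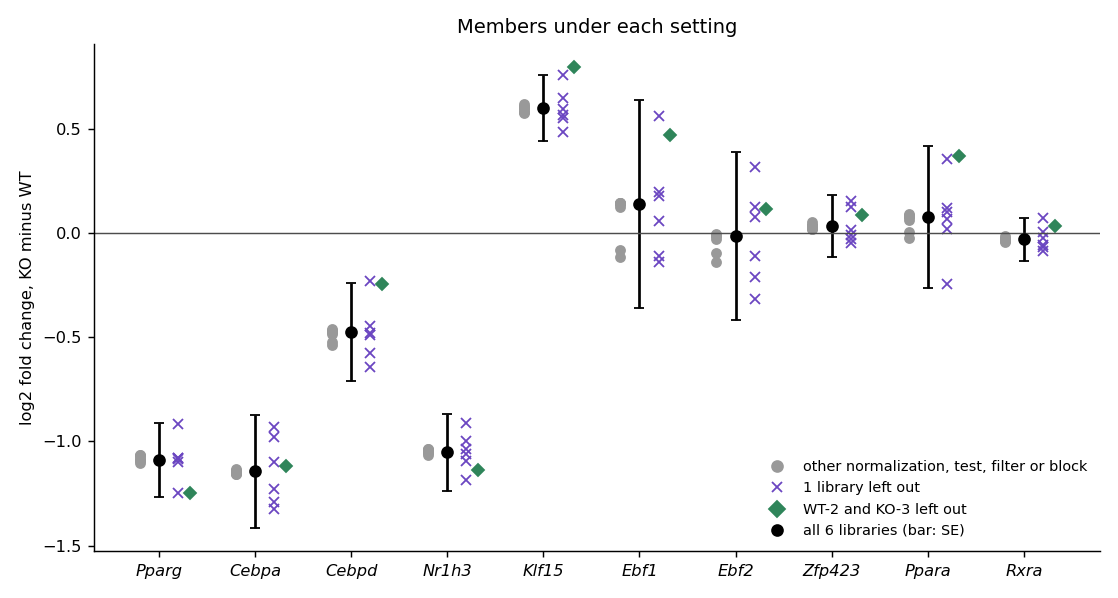
Log2 fold change (KO minus WT, y axis) of each transcription factor over all 6 libraries (black, bar: SE), with 1 library left out (crosses), with WT replicate 2 and KO replicate 3 left out (diamonds) and under another normalization, test, filter or replicate block (grey). Pparg, Cebpa, Cebpd and Nr1h3 stay below 0 and Klf15 above 0 at every setting drawn, while Ebf1, Ebf2, Zfp423, Ppara and Rxra fall on either side of 0. The groups of the first 5 genes do not overlap, so leaving libraries out could not turn their sign.

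Other genes of the cascade were counted from lists that do not use these 10. Beside each list stand all 13692 genes tested, of which edgeR called 2.51% and DESeq2 8.55%, and 2627 had an unadjusted p under 0.05. Of 12 further factors that promote fat cell formation 0 were called by edgeR, 3 had an unadjusted p under 0.05, and DESeq2 called 1 higher. The median log2 fold change was 0.175, beside 0.005 over all genes. The most abundant were Srebf1, the lipogenic factor (-0.53, SE 0.403, adjusted p = 0.539), and Klf4 (0.59, SE 0.260, adjusted p = 0.284). Of 10 factors that oppose it 0 were called by edgeR, 2 had an unadjusted p under 0.05, and DESeq2 called 2 higher (median 0.24). Zfp521, an antagonist of Ebf1 and Zfp423, was at 0.05 (SE 0.247, adjusted p = 0.945), and Ddit3, which encodes the C/EBP partner CHOP, was at 0.64 (SE 0.187, adjusted p = 0.145).

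Of 18 receptor partners and coregulators 2 rose, 0 fell and 16 were not called (median 0.08). Ppargc1a, the coactivator PGC-1alpha, which binds PPAR-gamma and drives mitochondrial genes, lay at 7.68, 7.45 and 7.09 CPM in WT and at 17.8, 18.9 and 14.3 CPM in KO (log2 fold change 1.2, SE 0.141, adjusted p = 0.0195). Prdm16, a coregulator of the brown fat programme, lay at 14.1, 14.9 and 14.1 CPM in WT and at 20.8, 24.4 and 23.3 CPM in KO (0.67, SE 0.0971, adjusted p = 0.0313). In both genes the WT libraries were close together and the groups did not overlap, but without WT replicate 2 neither was called.

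Genes that PPAR-gamma and C/EBP-alpha switch on were low in KO. Among 19 that were tested, 14 fell and 5 were not called (0 rose), with a median log2 fold change of -2.67. Some of them, such as Cidec, Retn and Cfd, passed the filter on low counts only through their WT libraries. For those a rise could not have been called, so the count and the median lean towards lower values. With at least 1 CPM required in all libraries, 9 were called, all lower. Adiponectin RNA (Adipoq) lay at 188.2, 94.5 and 170.1 CPM in WT and at 2.77, 2.52 and 3.81 CPM in KO (-5.63, SE 0.346, adjusted p = 0.0112). Cfd, the complement factor adipsin, went from 72.0 ± 28.7 to 0.340 ± 0.310 CPM, and Retn, which encodes resistin, from 8.70 ± 3.64 to 0.126 ± 0.0660 CPM (SD, n = 3 each; adjusted p = 0.0126 and 0.0146). Cidec, a lipid droplet fusion protein, held 163, 51 and 128 counts in WT and 3, 0 and 0 in KO. Fitted fold changes of such low genes rest on a prior count and are no bounds. Lep and Pck1 did not pass the filter, and Lep, the leptin gene, was at 0 counts in all KO libraries and at 32, 3 and 29 in WT.

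Targets of LXR, the receptor that Nr1h3 encodes, were called in 3 of 8 tested, all lower (median log2 fold change -0.63). The other 5 were not called, and by estimate 6 of the 8 were lower and 2 higher. Scd1, the desaturase, was at -2.92 (SE 0.378, adjusted p = 0.0241), Apoe, the apolipoprotein, at -2.21 (SE 0.287, adjusted p = 0.0244) and Abcg1, a cholesterol exporter, at -2.12 (SE 0.280, adjusted p = 0.0259). Fat cells and macrophages both express these genes. Of 11 tested targets of PPAR-alpha 0 were called by edgeR, 4 had an unadjusted p under 0.05, and DESeq2 called 2 lower (median -0.24). Hadha, an abundant enzyme of fatty acid oxidation, was at -0.24 (SE 0.0597, adjusted p = 0.0976).

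**Figure D4:**
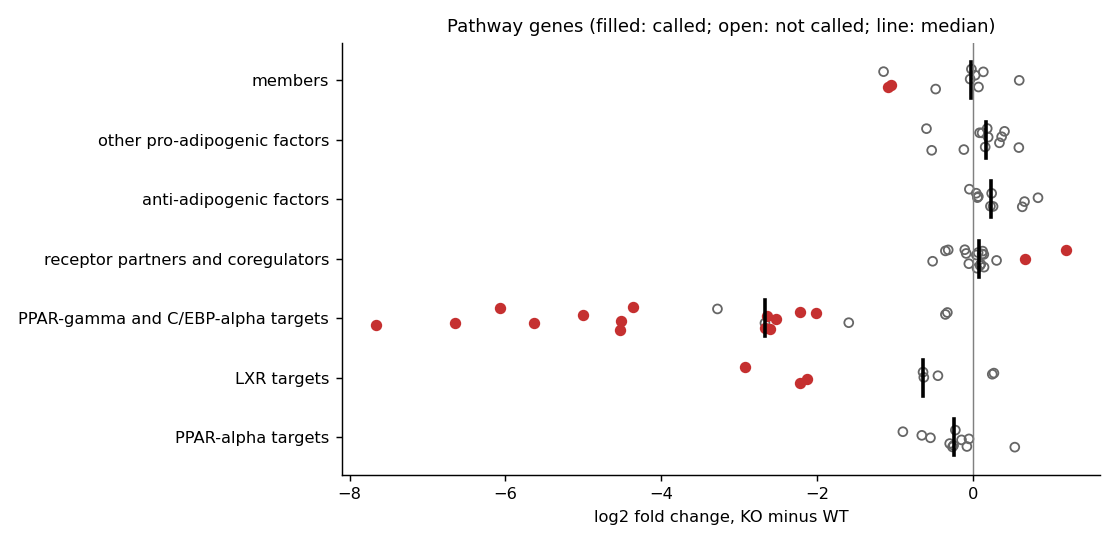
Log2 fold change (KO minus WT, x axis) of every tested gene in 7 lists (y axis; points spread vertically for legibility); filled points passed the edgeR test at an adjusted p under 0.05, open points did not, and the black line is the list median. The targets of PPAR-gamma and C/EBP-alpha have a median of -2.67, and the medians of the lists of factors and coregulators lie between -0.02 and 0.24.

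Macrophage and muscle markers were lower in KO replicates 1 and 2 than in any WT library, as the fat cell genes were. The macrophage and muscle sums were intermediate in KO replicate 3. Of the 8 macrophage markers 1 fell (Cd14), 0 rose and 7 were not called. At an unadjusted p under 0.05 there were 5 of the 8, DESeq2 called 4 lower, and for 7 of the 8 the KO and WT libraries did not overlap. Of all 13692 genes tested, 2627 had an unadjusted p under 0.05, DESeq2 called 8.55%, and 28.4% did not overlap. Of the 7 muscle markers 0 were called by edgeR, 1 had an unadjusted p under 0.05, DESeq2 called 1 lower, and for 0 of the 7 were the groups apart. In KO replicate 3 the summed macrophage markers stood at 50.2% of their WT mean and the summed muscle markers at 55.0%. Beside these were 5.42% and 4.32% in KO replicate 1 and 5.74% and 3.78% in KO replicate 2. Most of the macrophage sum in KO replicate 3 was Lyz2 (68.1 CPM) and Cd68. Single macrophage markers differed: Cd68 lay at 3.53, 4.72 and 39.6 CPM in KO replicates 1 to 3, and Cd14 at 1.63, 1.54 and 2.08 CPM. Pparg stood at 46.7% of its WT mean in KO replicate 3, 47.7% in KO replicate 1 and 46.7% in KO replicate 2, and the isoform 2 transcript was lowest in KO replicate 3 at 3.21%. Nr1h3 stood at 51.1%, 48.9% and 44.6% in KO replicates 1 to 3. Muscle markers were lower in WT replicate 2 (19.5%) than in KO replicate 3, and Pparg was higher there (76.6%). Macrophage markers were 63.6% in WT replicate 2 against 50.2% in KO replicate 3, and the targets of PPAR-gamma and C/EBP-alpha summed to 67.5% against 19.1%. Single targets went either way in KO replicate 3. Cd36 lay at 1.85, 2.36 and 24.2 CPM in KO replicates 1 to 3, and Lpl at 322, 306.2 and 140.2 CPM. Each comparison of WT replicate 2 with KO replicate 3 sets 1 library against 1 library, and both stood apart within their groups. The part of macrophage or muscle RNA in the differences was not tested. Of the 12 fat cell progenitor markers 1 fell, Icam1 (log2 fold change -1.03, SE 0.121, adjusted p = 0.0195), 0 rose and 10 of the 11 tested were not called. Dlk1, which encodes the inhibitor of fat cell formation Pref-1 and was singled out after its values were seen, lay at 218.2, 242.2 and 210.4 CPM in WT, below all KO libraries (log2 fold change 1.67, SE 0.419, adjusted p = 0.104).

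**Figure D5:**
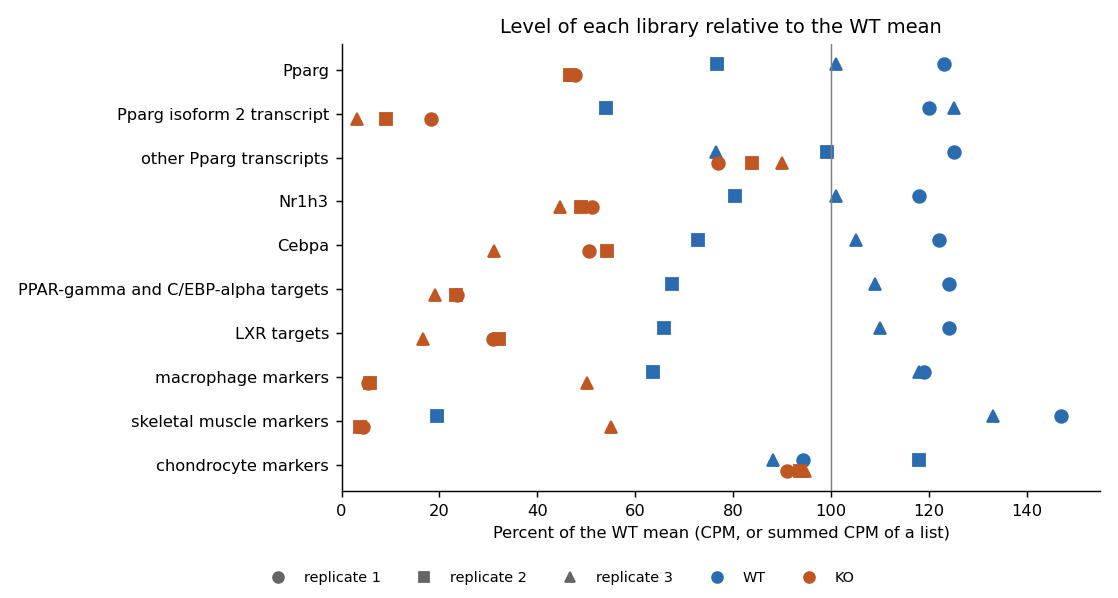
Level in each library as a percent of the WT mean (x axis) for single genes, Pparg transcripts and summed lists (y axis); blue marks WT and orange KO, and marker shape gives the replicate. The isoform 2 transcript stays at or below 18.2% in KO, while the summed macrophage and muscle markers reach 50.2% and 55.0% in KO replicate 3.

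The genes whose pattern over the 6 libraries was most like that of Pparg were Gda, Nr1h3, Prkar2b, Eno3 and Rftn1. Likeness was the root mean square difference of log2 CPM after each gene was centred on its own mean, among 12152 genes with a mean log2 CPM above 1, and it was 0.04, 0.06, 0.10, 0.11 and 0.12 for these 5. Gda, which encodes guanine deaminase, lay at 33.2, 21.4 and 29.6 CPM in WT and at 13.4, 13.0 and 12.7 CPM in KO. These values describe a pattern and carry no test.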

How the data were processed

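RNA-seq libraries of sorted mouse chondroprogenitors (cultured, per the labels' growth protocol), 3 WT and 3 Ppp1r15b KO, were grouped by their titles. Per the labels' protocols, reads were aligned with STAR to mm10 and counted against GENCODE vM25 with featureCounts. The submitters' processing notes give featureCounts 2.0.0 and DESeq2 1.28.1. The deposited tables do not hold what that gives: they list Entrez genes and RefSeq transcripts with estimated counts, of which 12.9% and 59.7% are not whole. Transcript sums equal the gene table to within 0.04 counts. Which counter, annotation release and strand setting made them is not given in the sources used here. TPM values, scaled by the authors for length and depth, were read for levels between genes, and the authors' FPKM columns were not used.

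Estimated counts were rounded, filtered with filterByExpr (at least 10 counts, 15 in total). After TMM scaling they entered the quasi-likelihood test of edgeR 4.0.16 (R 4.3.3), KO against WT, without covariates, with Benjamini-Hochberg adjustment over all 13692 genes or 33288 transcripts. The standard error is the log2 fold change over the square root of F. Genes are said to rise or fall at an adjusted p under 0.05. The common dispersion was 0.0525. CPM uses TMM-scaled library sizes, and log2 CPM a prior count of 2. DESeq2 1.42.0, limma-voom (limma 3.58.1), other scalings and filters, robust estimation, the replicate number as a block and libraries left out were the alternatives. Isoform shares were compared by an exact permutation test over libraries. Figures were drawn with matplotlib 3.10.9. Scripts were tested on simulated data.

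The 10 genes and the lists were chosen with earlier results of these data known. Named genes were the 10, Ppp1r15b, per pathway list the 4 most changed called genes each way or, with none called, the 2 most abundant, the defining markers of each cell type, and the 5 genes most like Pparg. Of the 17666 gene identifiers 17551 matched the RefSeq table of GRCm38.p6, which gave positions and promoter windows. The files name no build of their own, and mm10 in the labels stands for GRCm38.

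Counts of replicates differed beyond sampling noise in every pair (chi-square per degree of freedom 3.04 to 128), so all 6 libraries were kept as separate samples. Depth was 18380880 to 19643951 estimated counts per library. Dlk1, Cd14, Lyz2, Col1a1, Acta1, Myh3, Cd36 and Lpl were named outside the rule, after their values were seen. A gene that the rule names is not reported here.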

Additional observations from a re-analysis of the deposited data

How the results depend on the processing

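Pparg, Cebpa, Cebpd, Nr1h3 and Klf15 and the isoform 2 share kept their direction in all alternatives run. Their WT and KO values do not overlap, so leaving libraries out could not have turned these directions. The share difference of -38 percentage points was -38.7 from TPM, -38.9 over the 4 matched transcripts (chosen after seeing the data) and -31.3 to -44.8 with 1 library left out. Members called lower were 2, and 1 with library size only, without a filter and with robust estimation, 0 with limma-voom and the replicate block, 4 without WT replicate 2 and KO replicate 3, and 0 to 4 with 1 library left out. Members called higher were 0, and 1 with DESeq2, 2 with those libraries out and 0 to 2 with 1 left out. Genes called lower and higher were 223 and 121, and 674 and 497 with DESeq2, 3000 and 2416 with those 2 libraries out, 4 and 1 with the block, 0 to 2231 and 0 to 1731 with 1 left out. Those called lower were 148 with a 1 CPM filter. The cause was not tested.

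Nr1h3 lost its call at -1.03 (library size only), -1.05 (no filter, robust), -1.04 (limma-voom and the block) and Pparg at -1.07 (limma-voom) and -1.06 (the block, adjusted p = 0.126). With 1 library left out Pparg ranged from -1.25 to -0.92, Nr1h3 from -1.19 to -0.91, Cebpa from -1.33 to -0.93, Cebpd from -0.65 to -0.23, Klf15 from 0.48 to 0.76, Ebf1 from -0.14 to 0.56, Ebf2 from -0.32 to 0.32, Zfp423 from -0.05 to 0.16, Ppara from -0.24 to 0.35, Rxra from -0.089 to 0.069, Zfp521 from -0.13 to 0.30 and the abundant transcript of the first Pparg start region from -0.15 to 0.56. DESeq2 called Cebpa (-1.14), Klf15 (0.60), the isoform 2 transcript (-3.29) and that of the second start region (-0.72). Without WT replicate 2 and KO replicate 3 Cebpa (-1.12), Cebpd (-0.24), Klf15 (0.80) and Ebf1 (0.47) were called, and the signs of Ebf2 (0.11), Rxra (0.032) and the first-region transcript (-0.25) turned. With limma-voom those of Ebf1 (-0.12), Ppara (-0.023) and Zfp521 (-0.009) turned, and with the block those of Ebf1 (-0.083) and Zfp521 (-0.009), none of them called.

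Called genes of the pathway lists, in either direction, numbered 0 further pro-adipogenic factors (1 with DESeq2, 8 with the 2 libraries out, 0 to 6 with 1 left out), 0 opposing factors (2, 6 and 0 to 6), 2 coregulators (8 with the 2 libraries out, 0 with the block, 0 to 7), 14 PPAR-gamma and C/EBP-alpha targets (9 with the 1 CPM filter, 3 with the block, 0 to 21), 3 LXR targets, all lower (6 with the 2 libraries out and 6 without KO replicate 3, of which 2 were higher each time, 0 with the block, 0 to 6) and 0 PPAR-alpha targets (2 with DESeq2, 6 with the 2 libraries out, 0 to 4). Whether same-numbered libraries pair could not be settled with 3 libraries per group. Their deviations from the group means correlated at -0.143, 0.215 and 0.238, and 3 of 6 libraries correlated best with their own number. Depth limits the isoform 2 transcript, at 9.61 to 49.71 estimated counts in KO, and Cidec, Retn and Lep, at 0 to 3 counts there.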
